A study of Mus musculus with 4 samples.

Results

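Nos2, Arg1, Arg2, Ass1, Asl, Slc7a2, Odc1, Gch1 and Acod1 encode the transporter and enzymes through which macrophages import, use and rebuild arginine, and the enzyme that makes itaconate. They were chosen by name, as the listed symbols among the 11111 genes of the deposited table. Of the 9 genes, 8 had a row, and Arg1, the cytosolic arginase gene, was not analysed here.

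The libraries came from mouse bone marrow-derived macrophages of wild-type C57BL/6 mice, in 2 groups of 2 libraries. The Reg1-MOs group received morpholinos that bind the Regnase-1 messenger RNA, and the Ctrl MO group received a control morpholino. Both groups were grown for 7 days with fresh medium on day 4, were given 2 µM of their morpholino for 24 hours, carried by Endoporter (6 µl/ml), a peptide for delivery, and were then stimulated with lipopolysaccharide (LPS), a bacterial cell wall component, at 10 ng/ml for 4 hours. Every library was LPS-stimulated, so no unstimulated level was measured. A morpholino is a synthetic antisense oligomer that binds RNA without cleaving it, and Regnase-1 is an endoribonuclease that cuts messenger RNAs of inflammatory proteins and also the one that encodes Regnase-1 itself. As known of the study, the targeting morpholinos shield that messenger from self-degradation, so they are not a knockdown. MO1 and MO2, the column headings of the Reg1-MOs libraries, are also morpholino names in the labels. It is not settled there whether a library received 1 of them or both, and the libraries were taken as replicates, named here by group and number (Reg1-MOs 1). The labels tie no library to a mouse or culture of its own, so the p-values describe the spread of these libraries, some of which may be technical.

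In macrophages stimulated with LPS, inducible nitric oxide synthase (Nos2) oxidises arginine to nitric oxide and citrulline, with tetrahydrobiopterin, whose synthesis starts with Gch1, as a cofactor. Arginine enters through the cationic amino acid transporter Slc7a2, and argininosuccinate synthase (Ass1) and lyase (Asl) rebuild it from citrulline and aspartate. Arginases take the same arginine to ornithine and urea, and ornithine decarboxylase (Odc1) turns ornithine into putrescine, the first polyamine. Acod1 is the mitochondrial enzyme, also called Irg1, that decarboxylates cis-aconitate from the citric acid cycle to itaconate, an inhibitor of succinate dehydrogenase.

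The recovered reads per library summed to 24652918 and 23369753 with Reg1-MOs and to 24904180 and 25213695 with Ctrl MO. Zc3h12a, the gene of Regnase-1, had 7799 and 6753 reads with Reg1-MOs and 3407 and 3572 with Ctrl MO, 2.14-fold higher with Reg1-MOs (log2 fold change 1.10, SE 0.07, limma adjusted p = 4.01e-04). Of 9 macrophage markers all had rows with at least 2690 reads in each library, and their summed levels, in RPKM (reads per kilobase of merged exon, scaled to the reads of the library in the table), were 8213 and 7840 with Reg1-MOs and 8813 and 8570 with Ctrl MO. Of these markers, Cd68 rose, and Lyz2 and Itgam fell. All 13 stromal and fibroblast markers in the table fell, with summed levels of 15.5 and 16.4 RPKM with Reg1-MOs and 38.7 and 38.3 with Ctrl MO. None of the 13 was at 0 reads, and Lum, Pdgfra and Thy1 had no row. Of 11 neutrophil markers, 10 had rows, with overlapping summed levels of 380 and 284 RPKM with Reg1-MOs and 348 and 390 with Ctrl MO. Rows were present for 1 of 9 dendritic cell markers, 2 of 11 lymphocyte markers and 0 of 7 erythroid markers. The part of these other cells in the results below was not tested, and in bulk RNA fewer cells of a type and less RNA per cell cannot be told apart.

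With Reg1-MOs, the mitochondrial arginase gene Arg2 was 2.74-fold higher and the arginine-rebuilding gene Ass1 was 2.44-fold higher, while the arginine importer Slc7a2 was 1.56-fold lower. Odc1 was 1.27-fold higher. Nos2 was 1.23-fold lower and did not pass the test, and Acod1, Asl and Gch1 did not pass it either. Of the 8 genes, 3 rose and 1 fell, so 50% were called. Of all genes in the table, 6.22% rose and 6.03% fell, which makes 12.2%. The 8 genes had a median log2 fold change of 0.12, against -0.03 over all 11111 genes. Both Reg1-MOs libraries lay above both Ctrl MO libraries in 4 of the 8 genes, and below them in 3. Over all 11111 genes this held for 3016 and 3532, so groups that do not overlap were frequent in the whole table. A call is an adjusted p under 0.05 by limma's two-sided moderated test on the deposited log2 values, with Benjamini-Hochberg adjustment over the whole table and 2 libraries per group. With Reg1-MOs 1 left out the 3 rises were 1, that of Ass1, and with Reg1-MOs 2 left out the falls were 2, since Nos2 then passed.

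**Figure D1:**
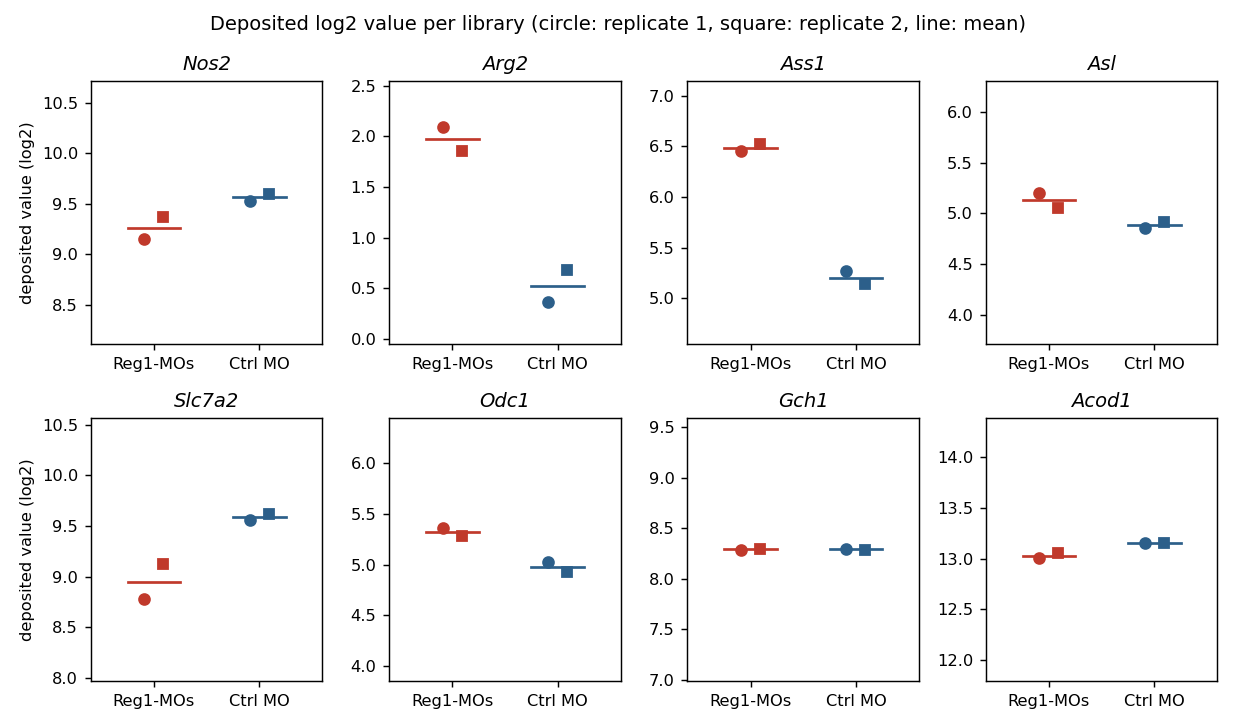
Deposited log2 value of each of the 8 genes in every library, with Reg1-MOs left and Ctrl MO right of each panel; a horizontal line is the mean of a group, and all panels span the same height on the log2 scale. Arg2 and Ass1 stand higher and Slc7a2 lower in both Reg1-MOs libraries, and the Gch1 values overlap between groups.

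Slc7a2 (ENSMUSG00000031596; chromosome 8, 40862396 to 40922308, plus strand, on GRCm38) encodes the transporter CAT2, the arginine importer that is induced together with Nos2 in activated macrophages. It had 8508 and 9904 reads with Reg1-MOs and 14444 and 14942 reads with Ctrl MO. Both Reg1-MOs libraries were below both Ctrl MO libraries, and the lower of them was replicate 1. The deposited log2 values averaged 8.95 ± 0.24 with Reg1-MOs and 9.59 ± 0.04 with Ctrl MO (SD, n = 2 each), a log2 fold change of -0.64 (SE 0.11, 95% interval -0.89 to -0.39, limma adjusted p = 0.0105). The call was kept with any 1 library left out and ended without a variance trend (adjusted p = 0.0958). The annotation places 635 exonic bases of the antisense transcript Gm26584 over those of Slc7a2. The strand setting of the read counting is not given in the sources used here, so reads of the 2 cannot be told apart.

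Slc7a2 differed in direction from the other arginine transporter genes called. Of 8 listed genes of arginine transport, 5 had a row, of which 2 rose and 3 did not pass. That is 40% called, against 12.2% of all genes, with a list median of 0.15 on the log2 scale. Slc3a2, the heavy chain that carries several amino acid transporters to the cell surface, had 13424 and 11789 reads with Reg1-MOs and 10314 and 9958 with Ctrl MO (log2 fold change 0.35, SE 0.06, limma adjusted p = 0.0135). Slc7a6, a light chain that pairs with Slc3a2, had 141 and 153 reads with Reg1-MOs and 96 and 81 with Ctrl MO (0.77, SE 0.16, adjusted p = 0.0211). Slc7a1, the constitutive arginine importer CAT1, had 2941 and 3407 reads with Reg1-MOs and 2962 and 3183 with Ctrl MO, and the groups overlapped (0.08, adjusted p = 0.659). The Slc3a2 call ended when Reg1-MOs 1 was left out (limma adjusted p = 0.0581), or Ctrl MO 1 (0.0876) or Ctrl MO 2 (0.179). That of Slc7a6 ended when Reg1-MOs 1 was left out (0.0757), or Reg1-MOs 2 (0.0842) or Ctrl MO 2 (0.0597).

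Nos2 (ENSMUSG00000020826; chromosome 11, 78920787 to 78960254, plus strand) encodes the enzyme that makes nitric oxide in activated macrophages. It had 11040 and 11737 reads with Reg1-MOs and 14085 and 14799 with Ctrl MO. The groups did not overlap. The deposited log2 values averaged 9.26 ± 0.15 with Reg1-MOs and 9.56 ± 0.05 with Ctrl MO (SD, n = 2 each), a log2 fold change of -0.30 (SE 0.08, 95% interval -0.50 to -0.11, limma adjusted p = 0.0549). The value lay near the threshold, and the call changed with the settings. Nos2 passed with quantile normalization (-0.26, adjusted p = 0.0447), with equal library totals (-0.28, 0.0376) and with Reg1-MOs 2 left out (-0.41, 0.0338). It stood at -0.20 (0.132) with Reg1-MOs 1 left out, and did not pass with Ctrl MO 1 (0.142) or Ctrl MO 2 (0.321) left out or without a variance trend (0.189).

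Gch1 (ENSMUSG00000037580; chromosome 14, 47153895 to 47189413, minus strand) encodes GTP cyclohydrolase 1, the rate-limiting enzyme of tetrahydrobiopterin synthesis. It had 6054 and 5584 reads with Reg1-MOs and 6003 and 5951 with Ctrl MO. On the deposited log2 scale it lay between 8.29 and 8.30 in all 4 libraries. The 95% interval of its fold change was 0.905 to 1.10 (limma adjusted p = 0.996). Among 7 other listed genes of tetrahydrobiopterin synthesis and recycling, 5 had rows, of which 1 fell and 4 did not pass. The share called was 20%, against 12.2% of all genes, and the median log2 fold change was -0.13. The fall was that of Pts, which catalyses the step after Gch1, with 233 and 197 reads with Reg1-MOs and 330 and 317 with Ctrl MO (-0.55, SE 0.11, limma adjusted p = 0.0165). That call ended when Reg1-MOs 1 was left out (limma adjusted p = 0.0580), or Reg1-MOs 2 (0.0519) or Ctrl MO 1 (0.0719).

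Of 16 listed genes of nitric oxide regulation, signalling and breakdown, 10 had rows, of which 2 rose and 8 did not pass. Calls thus made up 20%, against 12.2% of all genes, and the median log2 fold change was 0.14. Txnrd1, the cytosolic thioredoxin reductase whose system removes nitric oxide from S-nitrosylated proteins, had 18626 and 17177 reads with Reg1-MOs and 10092 and 10303 with Ctrl MO. It was 1.80-fold higher (log2 fold change 0.85, SE 0.06, limma adjusted p = 5.96e-04) and was called with any 1 library left out. Nosip, named for its binding to the endothelial nitric oxide synthase, had 353 and 295 reads with Reg1-MOs and 248 and 252 with Ctrl MO (0.41, SE 0.10, adjusted p = 0.0451). The Nosip call ended with any 1 library left out (limma adjusted p = 0.131 for Reg1-MOs 1, 0.0541 for Reg1-MOs 2, 0.197 for Ctrl MO 1 and 0.192 for Ctrl MO 2).

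Ass1 (ENSMUSG00000076441; chromosome 2, 31470207 to 31520672, plus strand) encodes the enzyme that joins citrulline and aspartate, the rate-limiting step in rebuilding arginine. It had 1703 and 1628 reads with Reg1-MOs and 734 and 670 with Ctrl MO. The lower Reg1-MOs library was well over the higher Ctrl MO library. The deposited log2 values averaged 6.49 ± 0.04 with Reg1-MOs and 5.20 ± 0.09 with Ctrl MO (SD, n = 2 each), a log2 fold change of 1.29 (SE 0.08, 95% interval 1.09 to 1.48, limma adjusted p = 4.20e-04). Ass1 passed under each of the 11 alternatives tried, with log2 fold changes between 1.22 and 1.35.

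Asl (ENSMUSG00000025533; chromosome 5, 130011258 to 130029247, minus strand) encodes the lyase of the following step, which releases arginine and fumarate. It had 712 and 591 reads with Reg1-MOs and 551 and 575 with Ctrl MO. Both Reg1-MOs libraries were above both Ctrl MO libraries, with replicate 2 close to them. The log2 fold change was 0.24 (SE 0.09, 95% interval 0.03 to 0.46, limma adjusted p = 0.126), which did not pass. Per kilobase of merged exon, the ratio of the Ass1 level to the Asl level within a library was 4.79 and 5.51 with Reg1-MOs. It was 2.67 and 2.33 with Ctrl MO. Merged exons have 2414 bases for Ass1 and 4831 for Asl. The principal transcripts have 1696 and 2413, with which the ratios would be lower in all libraries. The ratios of the groups did not overlap, and 2 libraries against 2 cannot give a two-sided exact permutation p under 0.333.

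The promoter of Ass1 is shown because Ass1 had the smallest p of the 8 genes. It is the RefSeq window on GRCm38.p6 at chr2:31470020-31470319, plus strand, 250 bases before to 50 after the annotated start, with matches to the motifs searched in capitals.
Ass1: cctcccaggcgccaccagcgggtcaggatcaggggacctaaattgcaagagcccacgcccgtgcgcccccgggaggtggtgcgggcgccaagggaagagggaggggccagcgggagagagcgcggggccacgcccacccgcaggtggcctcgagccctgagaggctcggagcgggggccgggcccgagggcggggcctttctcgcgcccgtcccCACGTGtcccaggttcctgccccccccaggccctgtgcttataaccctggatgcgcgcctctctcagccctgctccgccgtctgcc
Windows were found for 4 of the 9 genes, Ass1, Odc1, Gch1 and Acod1. Both strands were searched for motifs that included NF-kappaB, GAAANNGAA (the core of the interferon-stimulated response element), TTGCNNAA (C/EBP), TGACNNNGC (NRF2), TGACGTCA (cyclic AMP response element), the core of the hypoxia-inducible factor site and the TATA box. The core searched was ACGTG. The TATA box was searched as TATAAA. The Ass1 window, of 74% GC, held ACGTG on both strands in overlapping positions, beginning 36 and 35 bases before the RefSeq start. The gene position given above begins further upstream, at 31470207, and by it both matches lie inside Ass1. Of 32851 mouse promoter windows of the same length, 19.6% held ACGTG. The Odc1 window held none of these motifs.

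Of 15 other listed enzymes of arginine, ornithine and proline, 9 had rows, 1 rose and 1 fell. This was 22.2% called, against 12.2% of all genes, with a median log2 fold change of 0.06. Got1, the cytosolic aspartate aminotransferase, had 562 and 481 reads with Reg1-MOs and 365 and 381 with Ctrl MO (log2 fold change 0.52, SE 0.09, limma adjusted p = 0.0132). The mitochondrial form, Got2, stood at 0.17 and was not called (limma adjusted p = 0.218). Gatm, which moves the amidino group of arginine to glycine in the first step of creatine synthesis, had 825 and 819 reads with Reg1-MOs and 1086 and 1214 with Ctrl MO (-0.44, SE 0.09, adjusted p = 0.0210). Oat, the ornithine aminotransferase, stood at 0.06 (limma adjusted p = 0.615), with 1341 and 1250 reads with Reg1-MOs and 1310 and 1238 with Ctrl MO. Leaving out Reg1-MOs 1 (limma adjusted p = 0.0738) or Ctrl MO 1 (0.0606) ended the Got1 call. Leaving out Reg1-MOs 1 (0.106) or Ctrl MO 2 (0.191) ended that of Gatm.

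Arg2 (ENSMUSG00000021125; chromosome 12, 79130777 to 79156301, plus strand) encodes the mitochondrial arginase. It had 82 and 64 reads with Reg1-MOs and 24 and 30 with Ctrl MO, the fewest of the 8 genes. The groups did not overlap. The deposited log2 values averaged 1.98 ± 0.16 with Reg1-MOs and 0.52 ± 0.22 with Ctrl MO (SD, n = 2 each), a log2 fold change of 1.46 (SE 0.21, 95% interval 0.96 to 1.95, limma adjusted p = 0.00625). It stood at 1.34 (adjusted p = 0.0678) with Reg1-MOs 1 left out, where the call ended, and at 1.25 with 8 reads added in place of 0.5. The annotation overlaps the exons of Arg2 with 285 bases of the antisense neighbour Vti1b, a vesicle fusion gene with more reads, and with 116 bases of the antisense transcript Gm48780. Vti1b had 1364 and 1091 reads with Reg1-MOs and 1136 and 1134 with Ctrl MO (log2 fold change 0.14, limma adjusted p = 0.324). With the strand setting not given, reads of these antisense genes cannot be told apart from those of Arg2.

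Odc1 (ENSMUSG00000011179; chromosome 12, 17544794 to 17551505, plus strand) encodes the rate-limiting enzyme of polyamine synthesis. It had 799 and 691 reads with Reg1-MOs and 622 and 580 with Ctrl MO, without overlap. Its log2 fold change was 0.35 (SE 0.09, 95% interval 0.14 to 0.55, limma adjusted p = 0.0422). This call was the nearest to the threshold among the 4. It ended with any 1 library left out (adjusted p = 0.125 for Reg1-MOs 1, 0.0591 for Reg1-MOs 2, 0.128 for Ctrl MO 1 and 0.345 for Ctrl MO 2) and without a variance trend (0.116).

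Of 16 other listed genes of polyamine synthesis, breakdown and antizymes, 13 had rows, of which 1 fell and 12 did not pass (7.69% called, against 12.2% of all genes), and the median log2 fold change was -0.0011. The fall was that of Azin1, the antizyme inhibitor that protects ornithine decarboxylase from degradation, with 3289 and 3611 reads with Reg1-MOs and 4649 and 4543 with Ctrl MO (-0.38, SE 0.09, limma adjusted p = 0.0398). The antizyme gene Oaz1, whose product targets ornithine decarboxylase to the proteasome, stood at 0.14 (limma adjusted p = 0.305). The spermidine synthase Srm (-0.07), the spermine synthase Sms (-0.02) and the polyamine acetyltransferase Sat1 (0.07) were not called (limma adjusted p = 0.777, 0.881 and 0.473 in this order). The Azin1 call ended with Reg1-MOs 1 left out, where Azin1 stood at -0.25 (limma adjusted p = 0.0858), and with Ctrl MO 1 (0.124) or Ctrl MO 2 (0.0953) left out.

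**Figure D2:**
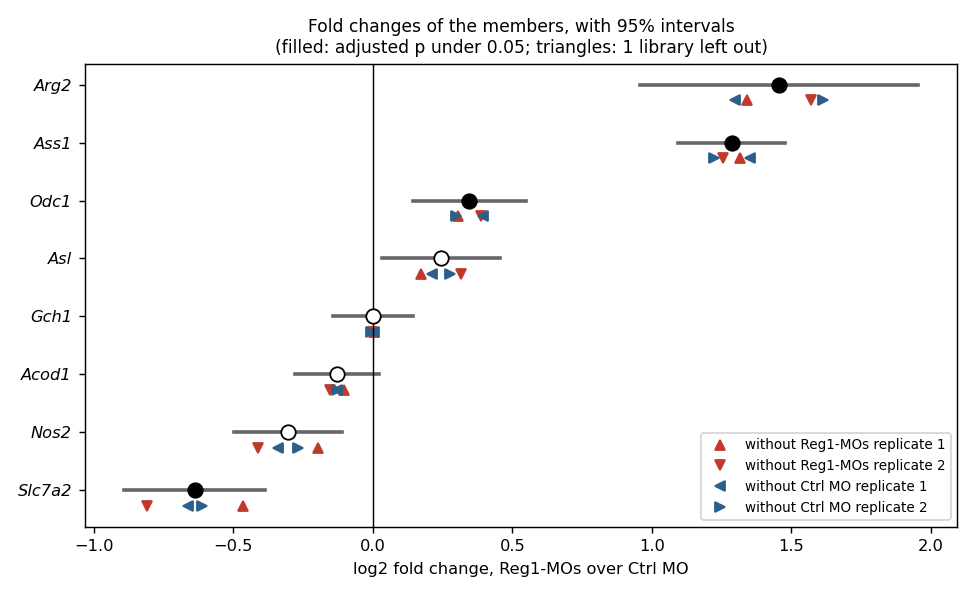
Log2 fold change of each of the 8 genes, Reg1-MOs over Ctrl MO, with its 95% interval; filled circles passed at an adjusted p under 0.05, open circles did not, and triangles give the value with 1 library left out. Arg2 (1.46) and Ass1 (1.29) stand apart at the right, Slc7a2 (-0.64) is lowest, and the Slc7a2 value moves most when either Reg1-MOs library is left out.

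Acod1 (ENSMUSG00000022126; chromosome 14, 103046977 to 103056573, plus strand) had 158887 and 150979 reads with Reg1-MOs and 173950 and 173958 with Ctrl MO. These were 0.644% and 0.646% of the reads with Reg1-MOs, against 0.698% and 0.690% with Ctrl MO. The groups did not overlap, and the difference was small. The deposited log2 values averaged 13.03 ± 0.04 with Reg1-MOs and 13.16 ± 0.00092 with Ctrl MO (SD, n = 2 each), a log2 fold change of -0.13 (SE 0.06, 95% interval -0.28 to 0.02, limma adjusted p = 0.237). It passed under none of the 11 alternatives, at values from -0.15 to -0.03.

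The promoters of Acod1 and Gch1 are shown beside each other as those of 2 genes of the set that LPS induces in macrophages and that did not pass here. They are the RefSeq windows on GRCm38.p6 at chr14:103046762-103047061, plus strand, and chr14:47189364-47189663, minus strand, each read 5′ to 3′ along the gene, with motif matches in capitals.
Acod1: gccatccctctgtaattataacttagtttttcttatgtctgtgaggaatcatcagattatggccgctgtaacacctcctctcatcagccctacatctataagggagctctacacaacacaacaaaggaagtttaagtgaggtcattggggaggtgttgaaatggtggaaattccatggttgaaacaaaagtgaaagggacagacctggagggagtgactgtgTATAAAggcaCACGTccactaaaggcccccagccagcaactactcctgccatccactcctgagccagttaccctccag
Gch1: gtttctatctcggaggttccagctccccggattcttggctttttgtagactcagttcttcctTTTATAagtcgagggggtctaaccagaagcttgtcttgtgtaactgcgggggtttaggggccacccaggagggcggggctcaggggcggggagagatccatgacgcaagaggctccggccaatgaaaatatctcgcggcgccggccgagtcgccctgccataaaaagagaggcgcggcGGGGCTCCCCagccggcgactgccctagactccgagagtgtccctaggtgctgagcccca
The Acod1 window held TATAAA beginning 28 bases before the RefSeq start, and ACGTG on the reverse strand beginning 18 bases before it. By the gene position given above, which begins further upstream at 103046977, both matches lie inside Acod1. The Gch1 window held an NF-kappaB match beginning 10 bases before the start and TATAAA on the reverse strand beginning 188 bases before it. Among the 32851 windows, 13.6% held TATAAA and 4.51% the NF-kappaB motif.

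Of 20 listed genes of itaconate precursors, breakdown and handling, 18 had rows, of which 2 rose and 16 did not pass. The share called, 11.1%, was near the 12.2% of all genes, and the median log2 fold change was 0.11. Sdhb, the iron-sulfur subunit of succinate dehydrogenase, had 1620 and 1345 reads with Reg1-MOs and 1135 and 1070 with Ctrl MO (0.46, SE 0.08, limma adjusted p = 0.0137). Rab32, a small GTPase that takes part in the delivery of itaconate to vacuoles holding bacteria, had 5297 and 5052 reads with Reg1-MOs and 4443 and 4354 with Ctrl MO (0.27, SE 0.06, adjusted p = 0.0342). The other succinate dehydrogenase subunits were not called, with Sdha at 0.03, Sdhc at 0.10 and Sdhd at 0.05. Clybl, an enzyme of itaconate breakdown, stood at 0.61 (limma adjusted p = 0.0806), with 90 and 84 reads with Reg1-MOs and 50 and 68 with Ctrl MO. The Sdhb call ended when Reg1-MOs 1 (limma adjusted p = 0.0704) or Ctrl MO 2 (0.0859) was left out. That of Rab32 ended with any 1 library left out (0.0613 for Reg1-MOs 1, 0.0553 for Reg1-MOs 2, 0.239 for Ctrl MO 1 and 0.347 for Ctrl MO 2).

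Of 11 transcription factors known to act at Nos2, Arg1 or Acod1, all had rows, 1 rose and 1 fell. That made 18.2% called, against 12.2% of all genes, with a median log2 fold change of -0.05. Tfeb, a regulator of lysosomal genes, had 198 and 150 reads with Reg1-MOs and 115 and 112 with Ctrl MO (0.64, SE 0.14, limma adjusted p = 0.0278). Irf8, an interferon regulatory factor of the macrophage lineage, had 13676 and 13662 reads with Reg1-MOs and 17682 and 17222 with Ctrl MO (-0.31, SE 0.07, adjusted p = 0.0265). Irf1 (0.20), Nfkb1 (-0.22), Rela (-0.08), Hif1a (-0.05) and Cebpb (0.15) were not called (limma adjusted p between 0.0683 and 0.832). The Tfeb call ended when Reg1-MOs 1 (limma adjusted p = 0.110) or Ctrl MO 2 (0.0613) was left out. The Irf8 call ended when Reg1-MOs 1 (0.0796), Ctrl MO 1 (0.218) or Ctrl MO 2 (0.171) was left out, and with Reg1-MOs 2 left out the list had 2 falls.

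Over all 7 lists, 71 of 93 genes had rows, and 8 rose and 4 fell, 16.9% of those present. That share is near the 12.2% of the whole table, and the median log2 fold change was 0.06. Of the 12 calls, that of Txnrd1 was kept with any 1 library left out and the other 11 were each lost without at least 1 library. The 8 rises were 1 with Reg1-MOs 1 left out, 5 with Reg1-MOs 2, 4 with Ctrl MO 1 and 3 with Ctrl MO 2. The 4 falls were 0 with Reg1-MOs 1 left out and 1 with either control left out. Without a variance trend the call of Txnrd1 was the 1 left of the 12. The whole table then had 195 rises and 182 falls, against 691 and 670 in the main fit. With any 1 library left out the whole table also had fewer rises, and it had fewer falls except without Reg1-MOs 2. The 13 stromal markers had a median log2 fold change of -1.49, beside 0.06 for the pathway genes.

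**Figure D3:**
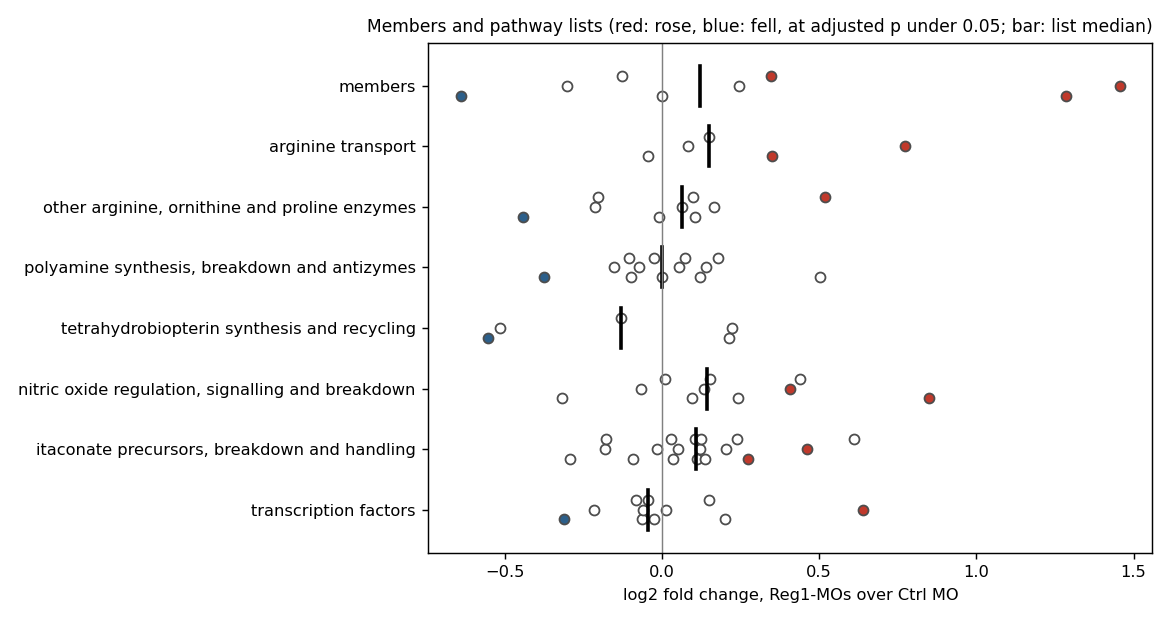
Log2 fold change, Reg1-MOs over Ctrl MO, of the 8 genes (top row, named members) and of the genes of 7 pathway lists; red points rose and blue points fell at an adjusted p under 0.05, open points did not pass, and the bar is the list median. Arg2 and Ass1 have larger values than any gene of the 7 lists, whose highest is Txnrd1 at 0.85.

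Levels were set side by side per length of merged exons, in RPKM from the recovered reads. Acod1 was highest, at 2457 and 2463 with Reg1-MOs and 2663 and 2630 with Ctrl MO, the 11th to 13th highest level of the table in each library. Nos2 followed at 102 and 114 with Reg1-MOs and 128 and 133 with Ctrl MO. Slc7a2 had 37.8 and 46.4 with Reg1-MOs and 63.5 and 64.9 with Ctrl MO.

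Gch1 had a level of 39.3 and 38.2 RPKM with Reg1-MOs and 38.6 and 37.8 with Ctrl MO. By merged exon length, Gch1 and Slc7a2 were thus neighbours whose levels overlapped with Reg1-MOs and not with Ctrl MO. Ass1 stood at 28.6 and 28.9 with Reg1-MOs and 12.2 and 11.0 with Ctrl MO, and Odc1 at 9.52 and 8.68 with Reg1-MOs and 7.34 and 6.76 with Ctrl MO. The level of Asl was 5.98 and 5.23 with Reg1-MOs and 4.58 and 4.72 with Ctrl MO, and Arg2 was lowest at 2.33 and 1.92 with Reg1-MOs and 0.675 and 0.833 with Ctrl MO. An alternative chosen after seeing the data used the length of the principal transcript in place of merged exons. The mean level over all 4 libraries was then 86.6 for Gch1 and 61.4 for Slc7a2, which turned their order. It was 28.7 for Ass1, 10.3 for Asl and 12.4 for Odc1. By this length Slc7a2 had 43.6 and 53.6 with Reg1-MOs and 73.3 and 74.9 with Ctrl MO. Gch1 had 88.5 and 86.1 with Reg1-MOs and 86.9 and 85.1 with Ctrl MO, so Slc7a2 was below Gch1 in every library.

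**Figure D4:**
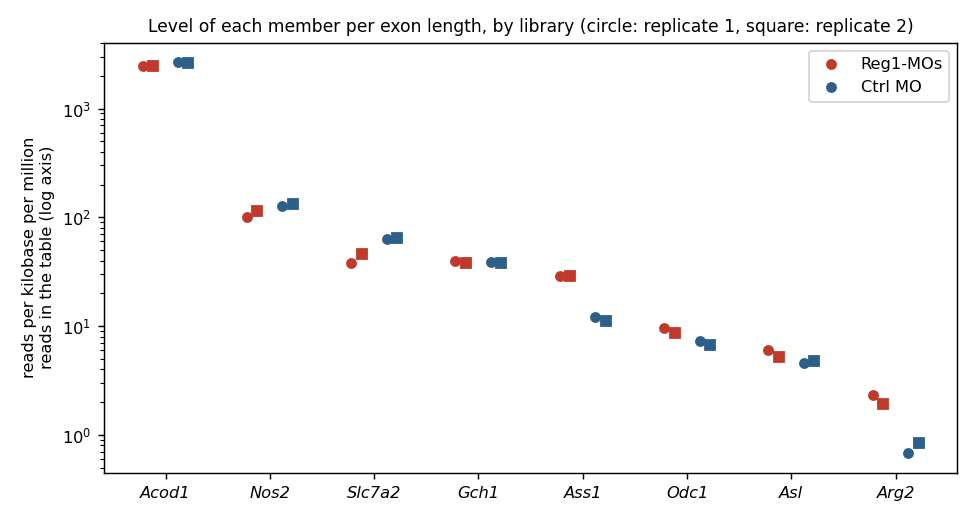
Level of each of the 8 genes in RPKM, on a log axis, with Reg1-MOs left and Ctrl MO right for each gene and 1 point per library. Acod1 lies more than an order of magnitude over Nos2, and Arg2 is lowest. By the merged exon length used here, Slc7a2 comes down to the level of Gch1 with Reg1-MOs.

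Among 9471 other genes that averaged 50 reads or more, the patterns most like that of Nos2 over the 4 libraries were those of Igf2bp3, Jade2 and Klhl5. Likeness was the root mean square difference between values centred on each gene's mean, and it was 0.0052, 0.0058 and 0.0068 on the log2 scale in this order. The nearest to Acod1 were Rtel1 (0.0035), Sco1 (0.0049) and Pdcd11 (0.0066). None of these 6 genes passed the test (limma adjusted p between 0.0650 and 0.503). Each pattern rests on 4 values and was sought among 9471 genes, and shared regulation was not tested.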

How the data were processed

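Poly(A) RNA was sequenced from directional libraries, per the labels' protocols. The submitters' processing notes name cutadapt, FastQC, HISAT2 1.6.3 and mm10. Counter, strand setting, gene filter and normalization method are not given. The authors deposited a single table of log2 values, with 11111 genes and 4 libraries. Each value, unlogged, was 1 constant per library times a number of reads plus 0.5, whole within 0.01 reads for 100% of genes, so reads were recovered. Groups and columns were matched to sample titles. Every gene was fitted with limma 3.58.1 (R 4.3.3), with a variance trend and group as the only term. The fit was also run on simulated data with independent noise in each library, and that outcome is not reported here. Exon lengths and positions came from GENCODE M21, where 11088 of 11090 Ensembl identifiers were found. Named genes were the members, Zc3h12a, pathway genes past the threshold and the 3 nearest patterns of Nos2 and Acod1, and other genes named were chosen after their values were seen. Members, lists and tests were chosen with earlier results of these data known. Arg1 ratios, Arg1 patterns and proteins were planned and not run. Some listed genes are not reported here.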

Additional observations from a re-analysis of the deposited data

How the results depend on the processing

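Ass1, Zc3h12a and Txnrd1 kept their direction and their call under all 11 alternatives, and Acod1 and Vti1b were called under none. Without a variance trend, the genes of the set had 0 falls and the pathway lists 1 rise and 0 falls. The whole table then had 195 rises and 182 falls. With quantile normalization or equal library totals the set had 2 falls, as Nos2 passed. These scalings put the median of all genes at -0.0070 and -0.0027, against -0.03. A replicate block gave the set 2 falls and the pathway lists 13 rises, and Nos2 (limma adjusted p = 6.34e-05) and Asl (0.0244) passed. Over all genes the block gave 1532 rises and 1891 falls, against 691 and 670 in the main fit. The labels do not say what a replicate number shares. The deviations of same-numbered libraries correlated at 0.314 over 9476 genes, from 2 numbers only, so the block was not used for any call. With 1 library left out, rises in the set ranged from 1 to 2 and falls from 1 to 2, and rises in the pathway lists from 1 to 5 and falls from 0 to 4. There the lone library of a group is assumed to vary like the others. Gch1, never called, changed sign to 0.040 with quantile normalization and 0.022 with equal totals, and ranged from -0.0062 to 0.0051 with 1 library left out. An offset of 8 reads, a mean of at least 50 reads and voom weights changed no call and moved no count in the set or the pathway lists. The cause of these changes was not tested. Arg2, with 24 to 82 reads per library, had the fewest reads of the set.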
